A study of Mus musculus with 52 samples.

Results

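The comparison of testes from Tug1 rescue mice with testes from Tug1-/- mice rested on 3 rescue and 4 Tug1-/- samples, chosen by tissue and genotype label, out of 52 samples in the series. Tug1 is a long noncoding RNA gene, and the study deleted its locus in mice and sequenced polyadenylated RNA from testes, other tissues and embryonic fibroblasts. The rescue mice address whether Tug1 RNA made from another place in the genome brings back the testis expression that the deletion altered. All 34865 genes of the testes table were read, and 4 wild-type testes served as a reference level.

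Both groups compared were males that carried the same homozygous deletion, Tug1_tm1.1Vlcg, a swap of the gene body for lacZ that leaves the promoter and exon 1 in place. Both had the labelled background C57BL/6J/129S6, with Neo and LacZ, whereas wild-type testes were labelled as without Neo. The paper, in contrast, describes removal of the neomycin gene by cre recombinase. It states that mice without it were kept and then backcrossed to C57BL/6J, so the Neo label is in conflict with the paper. Rescue mice carried in addition tg(Tug1), a Tug1 cDNA under a tetracycline-responsive promoter, and CAGs-rtTA3, a reverse tetracycline activator driven by the ubiquitous CAG promoter, and they received doxycycline in the diet, first through the dam from the day of the mating plug. The Tug1 cassette had integrated at random sites in founder males, and the activator line came from B6N.FVB stock. The Tug1-/- mice are not described as having received doxycycline. Transgene, activator, drug and any strain segments that came with the transgenic lines therefore cannot be told apart in what follows. Ages are not given in the sources used here.

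Expression was available only as the authors' mean of each group in TPM, the length-corrected abundance of a gene's transcripts relative to all transcripts in the library. Single libraries, their depth and their spread are not in these means, so no test was run. From the means alone, no difference below can be set against the variation between mice. The authors' own tests on the replicates were not used here. Ratios are log2((rescue + 0.1 TPM)/(Tug1-/- + 0.1 TPM)), and a gene is called higher or lower in rescue where the group means were at least 1.5-fold apart on that scale. In whole testes, fewer cells of a type and less RNA per cell cannot be told apart.

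The adult testis makes sperm in seminiferous tubules, where Sertoli cells nurse the germ cells from spermatogonia through meiosis to spermatids. Leydig cells lie between the tubules and make testosterone from cholesterol. Sperm leave the testis for the epididymis, a separate organ pressed against it, whose lining secretes defensins, lipocalins, protease inhibitors and CRISP proteins onto the maturing sperm.

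Most testis genes had nearly the same mean in rescue and Tug1-/- testes, and differences past 4-fold ran more often towards lower values in rescue, in 105 genes against 7 of at least 1 TPM. Among 21606 genes whose 2 group means averaged at least 1 TPM, the median log2 ratio was 0.0077 and the middle 90% of genes ran from -0.39 to 0.27. Of these genes, 225 (1.04%) were higher and 553 (2.56%) lower in rescue. At 10 TPM or more, 5 of 10469 genes (0.0478%) were higher and 78 (0.745%) lower, 71 of the latter protein coding. None of the 5 was protein coding and none reached 2-fold, while 43 of the 78 passed 2-fold and 30 passed 4-fold. The 30 genes together held 2273 TPM in the wild-type mean, 2860 TPM in the Tug1-/- mean and 86.5 TPM in the rescue mean. For 71 of the 78 genes the rescue mean was also below the wild-type mean, and for 7 it lay between the other 2 means.

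**Figure D1:**
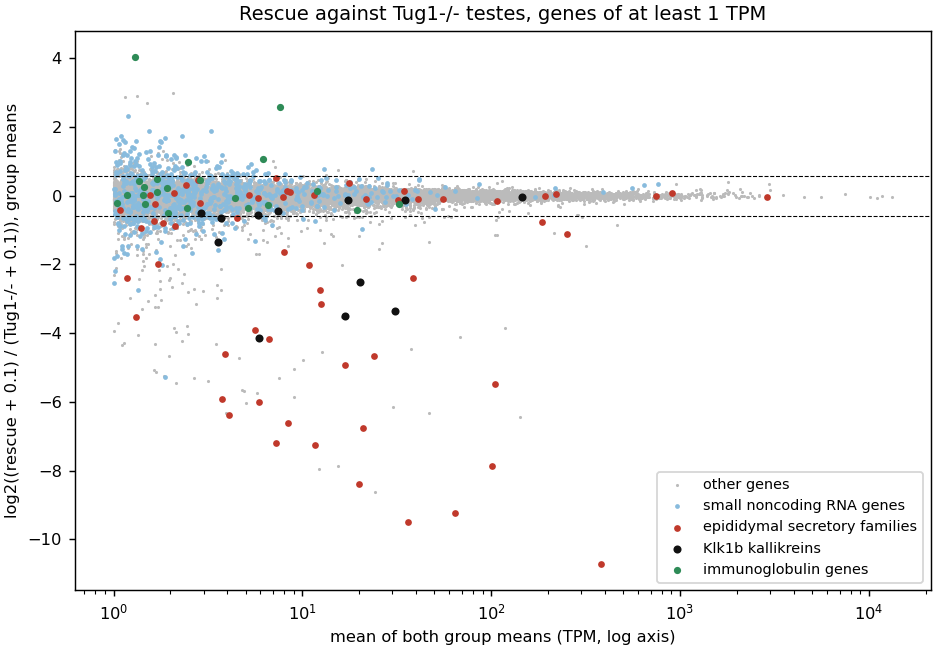
Each point is 1 of 21606 genes. The horizontal axis is the mean of both group means in TPM (log axis) and the vertical axis is the log2 ratio of rescue over Tug1-/- group means, with dashed lines at 1.5-fold. Past 4-fold, 105 genes lie below 0, among them members of the epididymal list and families (red) and Klk1b kallikreins (black), and 7 lie above 0, among them the immunoglobulin genes Igkv6-15 and Igkc (green), while small noncoding RNA genes (light blue) scatter both ways at low levels.

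Tug1 itself (chr11:3639785-3649673, GRCm38, minus strand) stood at 40.1 TPM in the wild-type mean, 0.885 TPM in the Tug1-/- mean and 1.60 TPM in the rescue mean. The rescue mean was 1.81-fold the Tug1-/- mean, a log2 ratio of 0.79, and 4.0% of the wild-type mean, against 2.21% in Tug1-/- testes. The transgene encodes transcript ENSMUST00000153313, which lacks part of the 5′ region. In GENCODE vM21 its 3 exons hold 5112 bases, 52.5% of the 9734 exonic bases of the gene. A TPM value set by the length of the whole gene is thus not a direct count of transgene RNA.

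Several of the lowest ratios belonged to genes known from the epididymis. Crisp1 (chr17:40293758-40319207), which encodes a cysteine-rich protein that coats sperm, had group means of 427 TPM in wild type, 760.5 TPM in Tug1-/- and 0.348 TPM in rescue. Its Tug1-/- mean was 2185-fold the rescue mean, and with 0.1 TPM added to both its log2 ratio of -10.73 was the lowest among genes of at least 1 TPM. The beta-defensin gene Defb28 had 118 TPM in wild type, 200.4 TPM in Tug1-/- and 0.765 TPM in rescue, and Defb2 had 13.6 TPM and 72.1 TPM in the first 2 groups and was listed at 0 in rescue. Wfdc15b, of the whey acidic protein family, had 43.9, 129 and 0.116 TPM in wild type, Tug1-/- and rescue. In the same order Spink8, a Kazal-type protease inhibitor gene, had 344, 205 and 4.49 TPM. Adam7, an epididymal membrane protein gene, had 326, 39.8 and 0.0193 TPM. For these genes, wild-type and Tug1-/- means were both far above rescue.

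Not every epididymal gene followed that pattern. Of the 11 genes on a list of epididymal markers, 3 reached 1 TPM over the 2 groups compared, 2 were higher and 2 lower in rescue, and the median log2 ratio was -0.03. Over the whole table, with no minimum, 3.17% of genes were higher and 6.41% lower in rescue. The 2 lower ones were Crisp1 and Adam7, and the 2 higher ones, Lcn5 and Lcn9, stayed below 0.5 TPM in both groups. The lipocalin gene Lcn5 had 679.98 TPM in wild type, 0.0155 TPM in Tug1-/- and 0.132 TPM in rescue, and Lcn8 had 799, 0.244 and 0.16 TPM. The cystatin gene Cst11 had 285, 0.285 and 0.379 TPM, and Rnase10 had 189.8, 7.93 and 7.79 TPM. The list as a whole summed to 3832 TPM in the wild-type mean, 810.4 TPM in the Tug1-/- mean and 10.4 TPM in the rescue mean. Lcn5, Lcn8 and Cst11 were thus high in the wild-type mean alone, Crisp1 and Adam7 in the wild-type and Tug1-/- means, and Rnase10 stood at like, low levels in Tug1-/- and rescue.

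Gene families known for epididymal secretion, gathered by symbol after the values had been seen, were counted next. Of 38 beta-defensin genes, 20 were lower and 0 higher in rescue, beside 6.41% and 3.17% over the table, with 26 at 1 TPM or more and 7 listed at 0 in rescue. Of 18 WFDC genes 10 were lower, and of 15 SPINK and SPINT inhibitor genes 9 were lower, with none higher in either family. Lipocalins had 2 higher and 2 lower of 8 (median 0.08). The higher ones were Lcn5 and Lcn9, near 0 TPM, and the lower ones Lcn12 and Lcn2. Of the 8 lipocalins, 3 reached 1 TPM, with 0 higher, 2 lower and a median of -1.10. A gene can pass that minimum through either group mean alone. Of 6 CRISP genes 1 was lower (median -0.05), and of 33 ADAM metalloprotease genes 2 were lower (median -0.05).

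Several abundant members of the same families were near equal, though not Wfdc10, which had 232 TPM in Tug1-/- and 138 TPM in rescue. The beta-defensin gene Defb19 had 751 TPM in Tug1-/- and 745 TPM in rescue, and Defb36 had 192 and 193 TPM. Crisp2, a sperm protein gene made in spermatids, had 2905 TPM in Tug1-/- and 2840 TPM in rescue. Spink2, an acrosomal inhibitor gene, had 883 and 933 TPM, and Wfdc15a had 216 and 223 TPM.

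Other genes among the 78 are also known from epididymal epithelium or secretions. Cd52, whose product is a small surface glycoprotein passed to sperm, had 80.4 TPM in wild type, 282 TPM in Tug1-/- and 3.12 TPM in rescue. The secreted glutathione peroxidase gene Gpx3 had 132, 222 and 15.4 TPM, and the carboxylesterase gene Ces5a had 80.3, 72 and 3.15 TPM. Ltf, which encodes the iron-binding protein lactoferrin, had 3.46, 30.9 and 0.0316 TPM. On the serpin cluster of chromosome 12, Serpina16 had 43.1, 92.6 and 1.06 TPM and Serpina1f had 52.2, 59.7 and 0.752 TPM. That cluster had 7 lower and 0 higher of 28 genes (median -0.25), beside 6.41% and 3.17% over the table, and its abundant member Serpina5 was near equal at 151 and 149 TPM in Tug1-/- and rescue. In the LY6 family 6 of 16 genes were lower (median -0.23, beside the same 6.41%), among them Ly6f at 48.6 and 0.0238 TPM, Ly6e at 67.3 and 26.2 TPM and Ly6c1 at 5.78 and 3.67 TPM, whereas Ly6k, at 144 and 153 TPM, was not.

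The epididymal marker list and the beta-defensin, WFDC, SPINK and SPINT, lipocalin and CRISP families held 90 genes together, among them abundant testis transcripts such as Crisp2, Spink2 and Defb19. The number of these genes at 10 TPM or more was 63 in the wild-type mean, 35 in the Tug1-/- mean and 16 in the rescue mean, and 1, 2 and 10 genes were listed at 0 in the same order. How many of all genes stood at 10 TPM or more in each mean was not counted. The 90 genes supplied 16 of the 78 lower genes, a set that made up 0.745% of the 10469 genes of at least 10 TPM. Which of the 4 Tug1-/- libraries carried the epididymal transcripts cannot be read from a mean, and how much epididymis went into each sample was not tested.

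**Figure D2:**
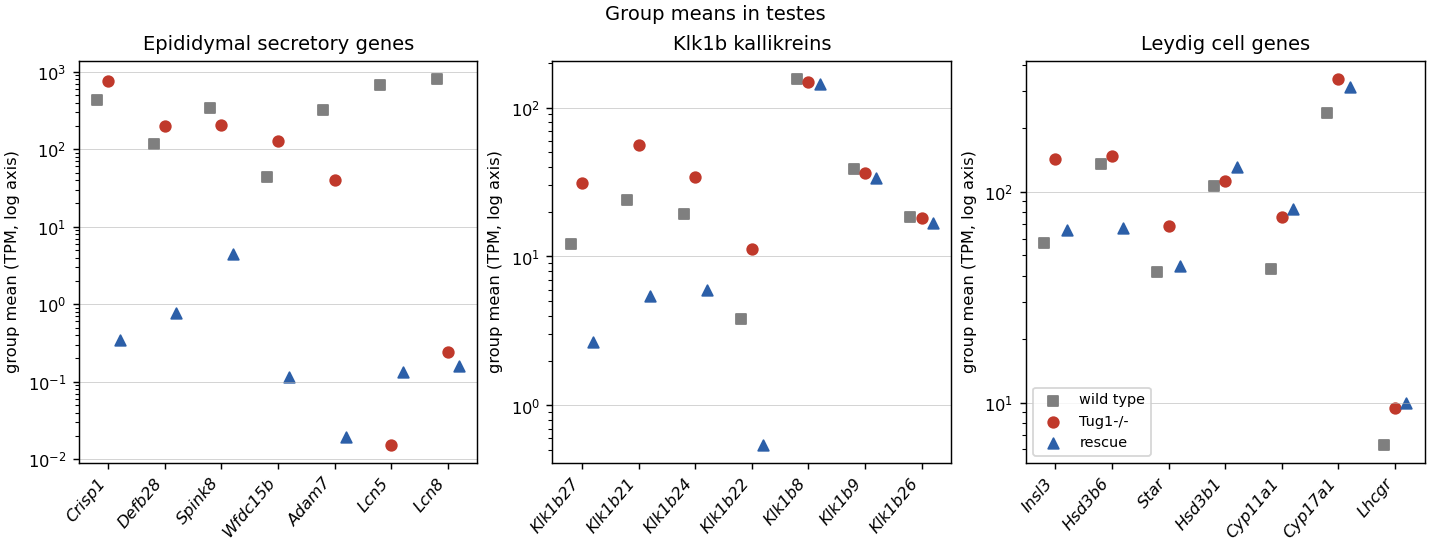
Group means in TPM (log axis) of wild-type (grey squares), Tug1-/- (red circles) and rescue (blue triangles) testes, 1 column per gene, with no error bars since only means were read. Crisp1 to Adam7 are low in rescue alone and Lcn5 and Lcn8 in both Tug1-/- and rescue. Klk1b27, Klk1b21, Klk1b24 and Klk1b22 are low in rescue beside the near-equal Klk1b8, Klk1b9 and Klk1b26, and the Leydig genes split between lower (Insl3, Hsd3b6, Star) and near-equal ones.

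Kallikreins are secreted serine proteases, and the mouse Klk1b genes form a cluster of close copies on chromosome 7, some of them known from Leydig cells. Of the 14 genes of this group, 7 were lower and 1 higher in rescue, beside 6.41% lower and 3.17% higher over all genes of the table, with a median log2 ratio of -0.61. Klk1b27 had 12.2 TPM in wild type, 31.0 TPM in Tug1-/- and 2.65 TPM in rescue. Klk1b21 had 23.8, 56.4 and 5.45 TPM, Klk1b24 19.2, 34.3 and 5.95 TPM, and Klk1b22 3.79, 11.3 and 0.547 TPM. These 4 genes were highest in Tug1-/- and lowest in rescue, 5.77-fold to 20.6-fold apart. Their neighbours Klk1b8 (155, 148 and 144 TPM), Klk1b9 (38.5, 36.2 and 33.4 TPM) and Klk1b26 (18.4, 18.2 and 16.7 TPM) were close to equal in the 3 means. The 1 higher gene, Klk1b11, stayed below 1 TPM with 0.471 TPM in Tug1-/- and 0.762 TPM in rescue.

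Since members of 1 cluster differed so widely, the sequences around their starts are shown for the 4 genes with the lowest ratios and for the 3 near-equal ones. Each runs from 120 bases before the start to 50 bases from the start onward, 5′ to 3′ on the plus strand of GRCm38.p6 from RefSeq, with capitals marking the letters TTTAAA. Positions are chr7:44052170-44052339 for Klk1b27, chr7:44102172-44102341 for Klk1b21, chr7:44188116-44188285 for Klk1b24, chr7:44112553-44112722 for Klk1b22, chr7:43950546-43950715 for Klk1b8, chr7:43975941-43976110 for Klk1b9 and chr7:44012558-44012727 for Klk1b26.
Klk1b27: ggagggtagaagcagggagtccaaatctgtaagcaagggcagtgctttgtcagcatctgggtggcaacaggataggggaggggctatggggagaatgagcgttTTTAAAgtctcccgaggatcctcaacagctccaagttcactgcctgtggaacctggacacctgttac
Klk1b21: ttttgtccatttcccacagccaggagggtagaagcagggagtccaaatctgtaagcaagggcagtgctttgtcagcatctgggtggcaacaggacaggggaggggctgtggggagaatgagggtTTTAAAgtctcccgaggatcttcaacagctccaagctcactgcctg
Klk1b24: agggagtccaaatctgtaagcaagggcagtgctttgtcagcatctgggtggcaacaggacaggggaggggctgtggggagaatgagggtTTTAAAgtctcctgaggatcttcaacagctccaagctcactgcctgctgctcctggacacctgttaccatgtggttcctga
Klk1b22: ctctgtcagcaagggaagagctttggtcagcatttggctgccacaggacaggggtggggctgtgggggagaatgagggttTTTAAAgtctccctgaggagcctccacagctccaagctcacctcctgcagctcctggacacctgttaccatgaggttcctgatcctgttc
Klk1b8: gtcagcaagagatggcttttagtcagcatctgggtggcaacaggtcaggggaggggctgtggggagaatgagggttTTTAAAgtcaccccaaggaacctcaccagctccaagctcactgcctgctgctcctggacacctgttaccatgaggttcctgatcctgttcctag
Klk1b9: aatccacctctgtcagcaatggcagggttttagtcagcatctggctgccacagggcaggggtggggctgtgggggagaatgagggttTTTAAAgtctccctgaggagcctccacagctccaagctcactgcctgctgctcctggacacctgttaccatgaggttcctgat
Klk1b26: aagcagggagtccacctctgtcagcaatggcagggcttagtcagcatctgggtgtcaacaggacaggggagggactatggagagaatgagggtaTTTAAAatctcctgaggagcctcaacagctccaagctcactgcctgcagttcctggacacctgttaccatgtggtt

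Over the 300 bases of the RefSeq window, the Klk1b27 promoter shared 92.8% of aligned positions with that of Klk1b21 and 89.7% with that of Klk1b24, which were both lower in rescue. Identity was 85.3% with Klk1b26, 84.2% with Klk1b9 and 81.8% with Klk1b8, which were near equal, and 79.9% with Klk1b22, which was lower. The other lower genes, Klk1b16 (83.9%), Klk1b5 (84.8%) and Klk1b1 (82.6%), lay within the range of the near-equal ones, so identity did not order the genes by their ratios. Among 32851 mouse promoters of the same length searched on both strands, 13.2% held TTTAAA, letters picked after these sequences had been read, and 13 of the 14 kallikrein promoters held them, on lower and near-equal genes alike. The TATA box letters TATAAA were in 13.6% of promoters and in 0 of the 14. The androgen receptor half-site letters AGAACA were in 19.0% of promoters and in 2 of the 14, Klk1b24 and Klk1b3, and the steroidogenic factor site CAAGGTCA in 1.56% and in 2 of the 14, Klk1 and Klk1b21. None of these letter matches separated the lower genes from the near-equal ones.

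The authors counted uniquely mapped reads, so close copies could pass reads to each other or lose them. The longest Klk1b27 transcript shared 93.3% of aligned positions with that of Klk1b24 and 92.9% with that of Klk1b21. Across the 14 genes, between 0% and 5.74% of windows of 1 read length occurred unchanged in another gene of the group. How reads were shared out among these genes was not tested, so the kallikrein values are uncertain.

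Leydig cell genes split. Of 16 genes for steroid synthesis and Leydig identity, 3 were lower and 0 higher in rescue, beside 6.41% and 3.17% of all genes, with a median log2 ratio of -0.16 and sums of 796, 1111 and 907 TPM in wild type, Tug1-/- and rescue. Insl3, the Leydig peptide hormone of testis descent, had 56.9 TPM in wild type, 144 TPM in Tug1-/- and 65.5 TPM in rescue. Star, the carrier that takes cholesterol into mitochondria, had 41.5, 68.7 and 44.5 TPM. For Insl3 and Star the rescue mean was thus nearer to wild type than to Tug1-/-. Hsd3b6, a 3-beta-hydroxysteroid dehydrogenase gene of adult Leydig cells, had 136, 147 and 67.1 TPM, so its rescue mean was below both.

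The later and parallel steps differed less. Cyp11a1, which cleaves the cholesterol side chain, had 75.5 TPM in Tug1-/- and 83 TPM in rescue. Cyp17a1, the next cytochrome on the way to androgens, had 341 and 315 TPM, and Hsd17b3, which makes testosterone, 62.9 and 48.1 TPM. Hsd3b1, a close copy of Hsd3b6, had 112 TPM in Tug1-/- and 131 TPM in rescue, and reads of the 2 copies may be split unevenly. The luteinizing hormone receptor gene Lhcgr, at 9.46 and 9.93 TPM, and the Leydig regulator Nr5a1, at 26.1 and 29.5 TPM, were slightly higher in rescue. Of 7 genes on a list made for the adrenal cortex, 3 were lower and 0 higher (median -0.35), beside the same 6.41% and 3.17%. Whether each member is specific to the adrenal cortex was not checked. The 3 were Mrap, a partner of the corticotropin receptor (8.21 and 4.75 TPM), Cyp21a1, the steroid 21-hydroxylase (3.12 and 1.22 TPM), and the estrogen sulfotransferase gene Sult1e1 (55.1 and 32.6 TPM). Sult1e1 alone averaged at least 10 TPM over the 2 groups. The members Cyp11b1 (1.63 and 1.61 TPM) and Cyp11b2 (1.87 and 1.52 TPM) did not pass 1.5-fold.

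Other abundant genes among the 78 were picked after their values were seen. Ptgds, a lipocalin-type prostaglandin D synthase gene, had 381 TPM in wild type, 467 TPM in Tug1-/- and 169 TPM in rescue, the largest loss in TPM outside Crisp1 and genes of sperm chromatin. Lcn2, an iron-siderophore carrier gene, had 219, 342 and 159 TPM, and B2m, the light chain of class I antigen complexes, 220, 293 and 138 TPM. The heavy chains that pair with B2m differed less: H2-K1 had 83.7 TPM in Tug1-/- and 77.1 TPM in rescue, and H2-D1 had 39.5 and 31.6 TPM. Over 28 class I presentation genes, 1 was lower and 1 higher (median 0.02). Among 21 glutathione transferase genes 2 were lower and 0 higher (median -0.12), a number near the 6.41% lower over all genes. The 2 were Gsta3 (18.8 and 7.15 TPM) and Gstm1 (598 and 334 TPM). The abundant germ cell form Gstm5 had 2894 and 2812 TPM. The fatty acid transporter gene Cd36 had 27.8 and 12.2 TPM, and the desaturase gene Scd1 had 20.3 and 8.97 TPM.

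Sertoli cell and early germ cell genes leaned the other way, by amounts below 1.5-fold. The median over all genes compared was 0.0077, and the share of all genes above 0 was not counted. Of 20 Sertoli cell genes 15 had log2 ratios above 0 (median 0.13), 0 passed 1.5-fold, and their sums were 1609, 1855 and 1935 TPM in wild type, Tug1-/- and rescue. The hormone gene Amh had 2.21, 3.14 and 4.68 TPM, the homeobox gene Rhox5 35.7, 48.7 and 61.1 TPM, and the follicle-stimulating hormone receptor gene Fshr 2.65, 3.90 and 5.33 TPM. For these genes the rescue mean was the farthest from wild type. Of 17 spermatogonial genes 16 were above 0 (median 0.16), among them the transcription factor genes Sohlh1 (10.1 and 13.4 TPM in Tug1-/- and rescue) and Dmrt1 (19.6 and 24 TPM). Gfra1, a receptor of spermatogonial stem cells, had 11.1 TPM in wild type and stood at 3.84 and 4.0 TPM in Tug1-/- and rescue. Etv5, a factor for stem cell upkeep, had 23.7, 15.3 and 16 TPM. For both, rescue stayed at the Tug1-/- level.

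Genes of meiosis and of spermatids were near equal. Of 20 meiotic genes 18 were above 0, with a median of 0.05 and a range of -0.03 to 0.16. The 12 round spermatid genes had a median of -0.01 and the 13 elongating spermatid genes one of -0.04, with 0 past 1.5-fold in any of these lists. The protamine gene Prm1, whose product packs sperm DNA, was at 14339 TPM in wild type, 13386 TPM in Tug1-/- and 13033 TPM in rescue, a level that fits testis tissue. The elongating spermatid list as a whole summed to 64733, 61094 and 59676 TPM.

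The counts in the lists that follow were few, and 6.41% of all genes of the table were lower and 3.17% higher. All 8 genes of peritubular myoid and smooth muscle cells were below 0 (median -0.27), and 1, the intermediate filament gene Des, was lower at 8.12 TPM in Tug1-/- and 4.62 TPM in rescue. The medians were nearer to 0 elsewhere, with -0.08 for 10 endothelial genes, -0.03 for 13 macrophage genes and 0.00 for 7 erythroid genes, with 0 members past 1.5-fold. Lists of 14 interferon response genes (0.08), 13 immediate early genes (-0.06), 14 circadian clock genes (0.00) and 6 genes that differ among C57BL/6 substrains (0.02) also had 0 past 1.5-fold. Nnt, which C57BL/6J mice carry in a truncated form, had 28 TPM in Tug1-/- and 29.2 TPM in rescue. Of 15 amino acid response genes of ATF4 (median -0.03), the cystine transporter gene Slc7a11 was lower at 2.44 and 1.47 TPM. Of 9 aquaporin genes (median -0.03) 2 were lower, among them Aqp2 with 4.93, 13.2 and 6.48 TPM in wild type, Tug1-/- and rescue. A list of 4 genes taken from the study, and so not independent of these samples, had 1 higher and 2 lower. Its higher member, the noncoding gene Gm28181, had 10.8, 4.63 and 9.39 TPM, and its member Ppargc1a, a coactivator of mitochondrial genes, had 1.81, 1.74 and 1.91 TPM.

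**Figure D3:**
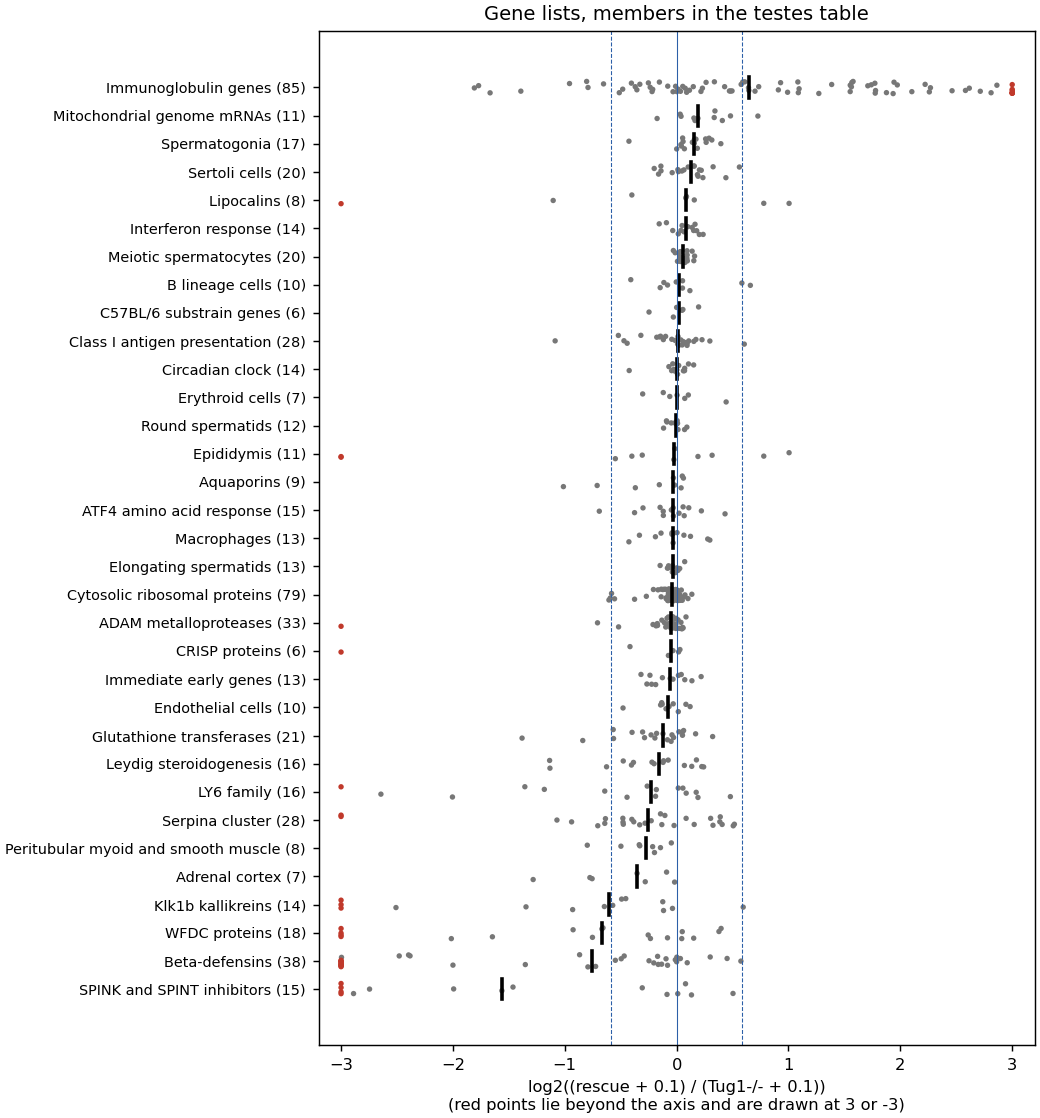
Log2 ratios of rescue over Tug1-/- group means (horizontal axis) for the members of each gene list in the table (grey points, number in parentheses), with the list median as a black bar and dashed lines at 1.5-fold. Red points lie beyond 3 or -3. Serpin, LY6, defensin, WFDC, SPINK and kallikrein lists spread far to the left, immunoglobulin genes to the right, and germ cell lists stay near 0.

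Of the 225 genes with higher rescue means, 208 lay between 1 and 5 TPM, as did 417 of the 553 lower ones. Of the 5 largest gains in TPM 4 were mitochondrial genes, mt-Cytb, mt-Nd2, mt-Nd1 and mt-Nd4, and the fourth in size was the nuclear gene Smim24, with 1953 TPM in Tug1-/- and 2220.4 TPM in rescue. The gene mt-Cytb, a subunit of respiratory complex III, had 2565 TPM in wild type, 2612 TPM in Tug1-/- and 3296 TPM in rescue, and mt-Nd2, of complex I, had 1522, 1536 and 2039 TPM. These 2 gains were 1.26-fold and 1.33-fold. Of the 13 protein-coding genes of the mitochondrial genome, 11 were in the table, and 10 of these were above 0. The median of the 11 was 0.19, with sums of 16535, 17572 and 19815 TPM in wild type, Tug1-/- and rescue. Of the 11, 8 reached 1 TPM, with a median of 0.18 and 0 past 1.5-fold. The genes mt-Co2, mt-Atp6 and mt-Co3 stayed below 1 TPM in all groups, beside mt-Co1 at 7413 TPM in Tug1-/-. Only uniquely mapped reads were counted, and how many reads were lost in this way was not tested. Of 759 small noncoding RNA genes of at least 1 TPM, 113 were higher and 112 lower, beside 1.04% and 2.56% over genes compared, so they supplied 113 of the 225 higher genes and 112 of the 553 lower ones. Among 14861 protein-coding genes 17 (0.114%) were higher and 315 (2.12%) lower, the latter near the 2.56% of genes compared, and the 17 were all of low level, such as the lens crystallin gene Cryaa (2.06 TPM in Tug1-/- and 4.23 TPM in rescue) and Lst1 of leukocytes (1.46 and 2.96 TPM).

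The highest ratio among genes of at least 1 TPM belonged to an immunoglobulin gene, Igkv6-15, and other immunoglobulin genes were higher too. Igkc (chr6:70726435-70726966), the kappa light chain constant region, had 2.11 TPM in wild type, 2.10 TPM in Tug1-/- and 13.0 TPM in rescue. The kappa variable segment Igkv6-15 was listed at 0 in wild type, had 0.0596 TPM in Tug1-/- and 2.54 TPM in rescue, and the heavy chain gene Ighm had 3.11, 3.95 and 8.49 TPM. Of 85 immunoglobulin genes, 46 were higher and 8 lower, with a median of 0.65, beside 3.17% higher and 6.41% lower over all genes of the table, but most were at very low levels. Of the 85, 19 reached 1 TPM, among them Igkv6-15 through its rescue mean alone. Among these 19, 4 were higher and 0 lower, with a median of 0.15. The median of 0.65 over all 85 thus rested mostly on genes below 1 TPM, and it was 0.24 with a pseudocount of 1 TPM. Genes of the B cell lineage were nearer to equal: over 10 such genes the median was 0.02, with 1 higher, Jchain, and 0 lower. Pax5, a B cell regulator, had 7.93 TPM in Tug1-/- and 7.91 TPM in rescue. Jchain, which joins secreted antibodies, had 1.06 and 1.73 TPM, and Sdc1, found on plasma cells and on epithelia, 4.65 and 3.48 TPM. The part of plasma cells in these values was not tested.

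Among 79 cytosolic ribosomal protein genes (median -0.04) 2 were lower, Rps4x and Rpl10, both on the X chromosome, a number near the 2.56% lower over genes compared and so not a result about the family. All 4 X-linked genes had log2 ratios below 0, as did 54 of the 75 autosomal ones, a grouping made after the values were known. Rps4x had 89.2 TPM in wild type, 73.5 TPM in Tug1-/- and 48.3 TPM in rescue, and Rpl10 had 91.5, 71.0 and 47.0 TPM. Rpl39 had 29.2, 27.8 and 18.5 TPM and Rpl36a 23.3, 20.9 and 16.1 TPM. The log2 ratios of these 4 genes ran from -0.61 to -0.38 with a median of -0.59. Those of the 75 autosomal genes ran from -0.56 to 0.14 with a median of -0.04, so the ranges overlapped, and their sums were 15472 TPM in Tug1-/- and 15186 TPM in rescue. Ribosomal protein genes have many processed copies in the genome, so uniquely mapped reads may miss part of their RNA.

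Genes around Tug1 had means in rescue close to those in Tug1-/- testes, including those whose means in Tug1-/- were far from wild type. Of 61 genes that start within 1 Mb of the Tug1 start, 47 reached 1 TPM, and the median log2 ratio was 0.03, with 3 higher and 3 lower in rescue, near the 3.17% and 6.41% over all genes of the table, and 0 of these 6 at 10 TPM or more. Smtn, a smooth muscle cytoskeleton gene 109 kb away, had 4.22 TPM in wild type, 38.1 TPM in Tug1-/- and 35.8 TPM in rescue. Gm11946, a noncoding gene that overlaps Smtn on the opposite strand, had 0.106, 4.68 and 4.99 TPM. Since counting by strand is not stated, reads of this pair cannot be told apart. Rnf185, a ubiquitin ligase gene, had 46.3, 82.7 and 88.4 TPM, and 8430429K09Rik, a gene of unassigned function, 15.7, 26.6 and 28.5 TPM. The selenoprotein gene Selenom had 6.24, 13.3 and 12.1 TPM and the phospholipase gene Pla2g3 2.31, 4.10 and 4.01 TPM. Morc2a, a gene of the MORC ATPase family that overlaps the Tug1 start on the opposite strand, had 52.9, 47.3 and 46.2 TPM. The same Tug1-/- samples enter both comparisons, so the values are given side by side only.

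**Figure D4:**
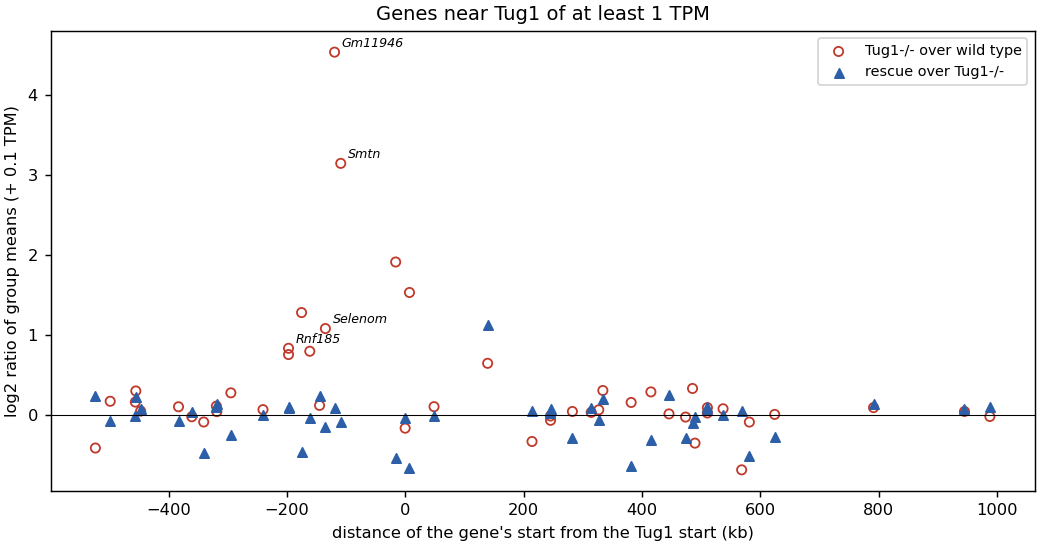
Genes near Tug1 of at least 1 TPM, with the distance of each gene's start from the Tug1 start in kb (horizontal axis) against the log2 ratio of group means (vertical axis). Open red circles are Tug1-/- over wild type and blue triangles are rescue over Tug1-/-, and both share the Tug1-/- mean. Smtn, Gm11946, Rnf185 and Selenom have high circles, while their triangles lie near 0.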

How the data were processed

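RNA was extracted with TRIzol from snap-frozen testes, and polyadenylated RNA libraries were made with the TruSeq RNA kit. The authors processed reads with CASAVA 1.8.2, aligned read pairs to mm10 (GRCm38) with STAR, counted uniquely mapped reads over GENCODE vM16 genes with featureCounts, and dropped a gene if no sample had at least 3 reads for it. In the labels, the testes samples name the table of the other tissues, so the testes table was taken by its own name and its rescue column. The authors deposited TPM as the mean of each group, and the depth per sample is unknown. The 10 columns of the authors' own comparisons (log2 fold change, statistic, p-value, adjusted p-value and significance label, for both contrasts) were not used.

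From the deposited mean TPM, log2 ratios were computed with a pseudocount of 0.1 TPM, over genes of at least 1 TPM, with a limit of 1.5-fold. Python 3.11.15, numpy 2.4.6, pandas 2.3.3, matplotlib 3.10.9 and biopython 1.88 were used, and the counting steps were tested on simulated means. Gene lists, promoters and transcripts were matched by gene name or by a pattern, although 30 gene names are repeated. Gene identifiers were used to combine the epididymal families and to count list members among the lower genes. The window around Tug1 was 1 Mb, with 0.5 and 2 Mb as alternatives.

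The members, 22 gene lists and all limits were chosen with earlier results of these data known. A further 12 lists were written after the values had been seen. Genes named are Tug1, the 10 highest and 10 lowest ratios (5 and 5 at 10 TPM or more), the 5 largest gains and losses in TPM, list members and genes near Tug1. Others are taken from the 78 genes lower and the protein-coding genes higher in rescue, and were picked after their values were seen.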

Additional observations from a re-analysis of the deposited data

How the results depend on the processing

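The higher and lower counts, 225 and 553, depended on the limits. They were 89 and 321 with a pseudocount of 1 TPM, 17 and 136 at a minimum of 5 TPM, 1104 and 2236 with no minimum, 67 and 232 at a 2-fold limit, and 776 and 1450 at the looser limit tried. With choices made after seeing the data they were 17 and 315 for protein-coding genes and 5 and 78 at 10 TPM. Lower genes outnumbered higher ones under each of these. A pseudocount of 0.01, centring on the median and TPM over protein-coding genes kept both counts within 1.5 times. Leaving out the epididymal marker list and families did so for the lower count, 520. Other genes known from the epididymis, such as Cd52, Gpx3, Ces5a, Ltf and Serpina16, stayed in. The 520 is thus not a count without epididymal transcripts. The Epididymis median went from -0.03 to -8.39 when only its 3 members of at least 1 TPM were kept, a filter that Crisp1 and Adam7 passed through their Tug1-/- means alone, and the SPINK and SPINT median of -1.56 became -2.96 with a pseudocount of 0.01 and -0.27 with 1. The Tug1 ratio ranged from 0.47 to 0.85, and the median near Tug1 was -0.01 within 0.5 Mb and 0.04 within 2 Mb. No paired analysis was possible because the table holds group means alone, which also leaves no sample to leave out in turn.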

Other observations

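Some genes of the lower set fall in no list. The betaine methyltransferase gene Bhmt had 28.7 TPM in wild type, 38.1 TPM in Tug1-/- and 12.8 TPM in rescue. The adhesion molecule gene Vcam1 had 24.1, 32.6 and 18.3 TPM, and the tropomyosin gene Tpm2 had 9.40, 16.6 and 10.1 TPM. The apolipoprotein gene Apoc1 had 35.5, 56.7 and 37.3 TPM, so that Tpm2 and Apoc1 had rescue means near wild type. The plastin gene Pls3 had 39.7, 16.2 and 10.4 TPM and Krt8, a keratin gene of simple epithelia, had 31.3, 20.5 and 13.4 TPM, both in falling order from wild type through Tug1-/- to rescue.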
